A study of Mus musculus with 5 samples.

Results

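Small leucine-rich proteoglycans were followed across 5 single-cell libraries of the mouse temporomandibular joint (TMJ) disc, the fibrocartilage pad between the jaw condyle and the skull. The 10 members were chosen by gene symbol, as Dcn, Bgn, Fmod, Lum, Ogn, Aspn, Prelp, Kera, Omd and Chad, out of 27998 genes in the files. All 10 had UMIs in retained cells of every library, so that none was lost to a filter. The libraries were labelled as wild-type (WT) C57BL/6 mice. There was 1 library of normal discs at each of 4 ages (3 d, 3 w and 16 w, and 78 w for aged mice). A further 1 was labelled as a TMJ disc injury model. Its age is taken from the study's methods, where anterior bands were punctured at 5 weeks of age and mice killed 2 weeks later. It is thus treated as 7 weeks old here. The normal discs had no treatment. The study's methods describe the puncture in Myh11-CreER mice with a conditional tdTomato reporter, whereas the injured library is labelled WT, and which mice gave it was not settled here. By the methods those reporter mice were also given tamoxifen at 5 weeks of age. Another section has them killed for histology 10 days after its first dose, so the time after injury differs within the methods. The deposited matrix of the 78 w library is named for 16 months of age, and the labelled age is used. The 3 d suspension pooled male and female pups, and the later normal libraries came from males. How many animals went into each suspension is not given in the sources used here, and no uninjured library of 7 weeks was analysed here.

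Because each condition is 1 library, a difference between libraries and a difference between conditions cannot be told apart, and no test was run. Every interval below is a 95% interval for counting error only. A level is given as CPM, the UMIs of a gene scaled to a common total over the same cells. A member is called higher or lower when its level differs 2-fold or more with at least 100 UMIs in the library with the higher level. The kit counts 1 UMI per captured 3′ end, so levels were not divided by transcript length.

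These proteins share a core of leucine-rich repeats that binds collagen fibrils, and most carry chondroitin, dermatan or keratan sulfate chains. They set fibril diameter and spacing, and they hold growth factors in the matrix. Decorin (Dcn) and biglycan (Bgn), with asporin (Aspn), form class I. Fibromodulin (Fmod), lumican (Lum), prolargin (Prelp), keratocan (Kera) and osteomodulin (Omd) form class II. Osteoglycin (Ogn) belongs to class III, and chondroadherin (Chad), a cartilage protein that binds collagen and integrins and lacks such chains, to class IV.

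Several members lie side by side in the genome (GRCm38, GENCODE M21). Dcn (chromosome 10, 97479609 to 97518143), Lum (97565128 to 97572703) and Kera (97606879 to 97613692) follow each other on the plus strand, with no other protein-coding gene between them. Aspn (chromosome 13, 49544443 to 49567565), Omd (49582462 to 49592822) and Ogn (49608046 to 49624501) form a further row on the plus strand, all inside the span of Cenpp, a gene of the minus strand. Prelp (chromosome 1, 133910304 to 133921414, minus strand) and Fmod (134037254 to 134048277, plus strand) are 115840 bases apart. Bgn (chromosome X, 73483602 to 73495933) and Chad (chromosome 11, 94565047 to 94569127) have no other member beside them. Both are on the plus strand, and Chad lies inside the span of Acsf2, a gene of the minus strand. The kit's reads keep their strand, and reads of a gene and of its antisense partner are counted apart where strand is used.

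Fmod, Prelp and Chad were the 3 members whose levels went together most closely over cell clusters and libraries, and Aspn was the member most opposed to Chad and Prelp (Lum and Ogn also had negative r with all 3), so the bases just before the start of these 4 genes are shown. They are RefSeq promoters of build GRCm38.p6, which held 8 of the 10 members (all but Dcn and Lum). Each line gives the 150 bases before the start, 5′ to 3′ on the gene's strand, at chr1:134037104-134037253 (plus), chr1:133921402-133921551 (minus), chr11:94564897-94565046 (plus) and chr13:49544293-49544442 (plus).
Fmod: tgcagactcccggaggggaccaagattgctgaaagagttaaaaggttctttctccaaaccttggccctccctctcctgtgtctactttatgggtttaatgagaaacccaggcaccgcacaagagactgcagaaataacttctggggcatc
Prelp: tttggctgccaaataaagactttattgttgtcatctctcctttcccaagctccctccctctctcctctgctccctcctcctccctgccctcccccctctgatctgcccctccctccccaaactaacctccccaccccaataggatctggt
Chad: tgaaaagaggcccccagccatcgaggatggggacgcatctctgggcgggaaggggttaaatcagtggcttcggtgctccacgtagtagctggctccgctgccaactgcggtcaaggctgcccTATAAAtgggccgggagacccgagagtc
Aspn: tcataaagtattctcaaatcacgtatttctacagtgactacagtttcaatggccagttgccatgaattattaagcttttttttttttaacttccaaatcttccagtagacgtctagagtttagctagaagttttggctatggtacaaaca
Capitals mark matches to 4 short motifs searched on both strands, the TATA box TATAAA, the SOX core ACAAAG, the TEAD core GGAATG and the E-box CACCTG, and no matches overlapped. Among these 4 genes the only match was the TATAAA of Chad, which began 28 bases before the start. Over all 32851 promoters in the table, windows of the same 150 bases held TATAAA in 7.57%, ACAAAG in 9.88%, GGAATG in 7.59% and CACCTG in 10.6%. A match is a description of the letters and says nothing of binding.

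Clusters were rebuilt from the counts with the members left out, and named from marker genes that hold no member. The stromal cells were clusters 1, 2, 3 and 10, in which 13 to 15 of 15 stromal markers were raised, with 10750, 7910, 7679, 8321 and 6878 cells at 3 d, 3 w, 16 w, 78 w and in the injured library. Cluster 1 was led by Cytl1, Lcn2 and Ibsp, cluster 2 by Cytl1 and Myoc, and Chad itself was among the leading genes of both. Cluster 3 was led by Pi16, Clec3b and Eln, and cluster 10 by cell cycle genes such as Top2a and Mki67. Cluster 3 held 57.1% of stromal cells at 3 d and 21.4 to 26.6% in the other 4 libraries, so levels are also given within clusters. The match of a cluster between libraries rests on integration. Without it, a stromal cluster of 9884 cells held 9881 from 3 d, and those of 16164 and 7831 cells held 0 from 3 d. At a resolution of 0.5, a stromal cluster led by Lcn2, Col2a1 and Ibsp had 55 cells at 3 d against 1645 at 3 w. Ratios of later stages to 3 d within clusters or at equal weight may thus hold differences in cell make-up, which were not tested. Cluster 8, a synovial lining fibroblast-like cluster led by Clic5, F13a1 and Calb2 with Prg4 among its leading genes, held 529, 84, 85, 322 and 210 cells. Without integration, the only lining cluster (570 cells) held 0 cells from 3 d and 52, 51, 233 and 234 from the other libraries. All lining values at 3 d thus rest on integration. Prg4 and the other 9 lining markers also reached a summed 280.2 to 12583 CPM in stromal cells, and their part in the lining values was not tested. The injured library was shallower than the others, at a median of 3299 UMIs per cell against 7721 to 12496. Pairs of libraries shared 19 to 39 cell barcodes out of 8467 to 15169 each.

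The family's share of the stromal RNA was several times higher in juvenile, adult and aged discs than in newborn discs. The 10 members together took 0.973% of stromal UMIs at 3 d, 3.64% at 3 w, 4.27% at 16 w, 4.11% at 78 w and 2.53% in the injured library. Dcn made up 32.9% of this at 3 d and 59.6 to 65.2% at the 3 later stages, and 44.4% after injury. Bgn went the other way, from 32.8% at 3 d to 9.34% at 16 w and 9.88% at 78 w, with 19.6% after injury. Among all genes in stromal cells, Dcn ranked 68 at 3 d, 3 at 3 w, 2 at 16 w and 78 w and 5 in the injured library.

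**Figure D1:**
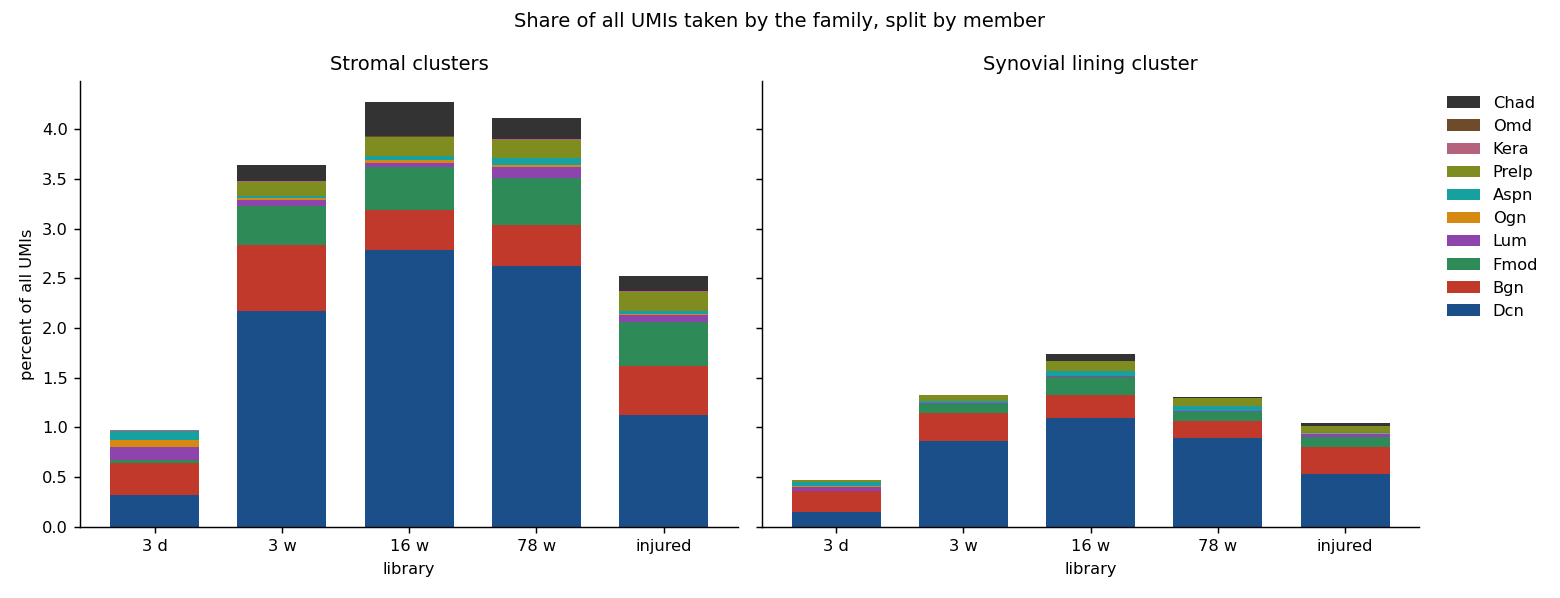
Stacked bars of the percent of all UMIs taken by each of the 10 members (vertical axis, percent) in each library (horizontal axis), for the stromal clusters (left) and the synovial lining cluster (right). The stromal bars reach 0.973% at 3 d and 3.64 to 4.27% at the later normal stages, mostly Dcn, and the injured bar reaches 2.53%.

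From 3 d to 3 w, 6 of the 10 members were higher 2-fold or more (Dcn, Bgn, Fmod, Prelp, Omd and Chad), where 16.5% of the genes compared were, and 3 were lower (Lum, Ogn and Aspn), where 18.8% were. Only Kera differed by less than 2-fold between these libraries. The members' median log2 ratio was 1.91, beside -0.03 over all genes compared. Later steps were smaller. From 3 w to 16 w, Aspn and Chad were higher, where 5.18% of genes compared were, and no member was lower 2-fold or more, where 5.83% were. From 16 w to 78 w only Lum passed the rule, upward, where 1.99% of genes compared did and 1.33% were lower. Between the ends of the age range, at 78 w against 3 d, 5 members were higher (Dcn, Fmod, Prelp, Omd and Chad; 14.3% of genes compared) and Ogn was lower (21.0%). With clusters 1, 2 and 3 given equal weight, 1 member was lower at 3 w than at 3 d (Aspn, ratio 0.401, with Lum at 0.537 and Ogn at 0.591), 5 were higher at 3 w than at 3 d (without Bgn, at 1.74), none was lower at 78 w (Ogn at 0.512), and 1 was higher at 16 w than at 3 w (Chad, 2.26, with Aspn at 1.89). The pair of members higher at 16 w than at 3 w lay close to 2-fold, and neither passed when cells were thinned to 1000 UMIs (Chad at 1.997, Aspn at 1.95).

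**Figure D2:**
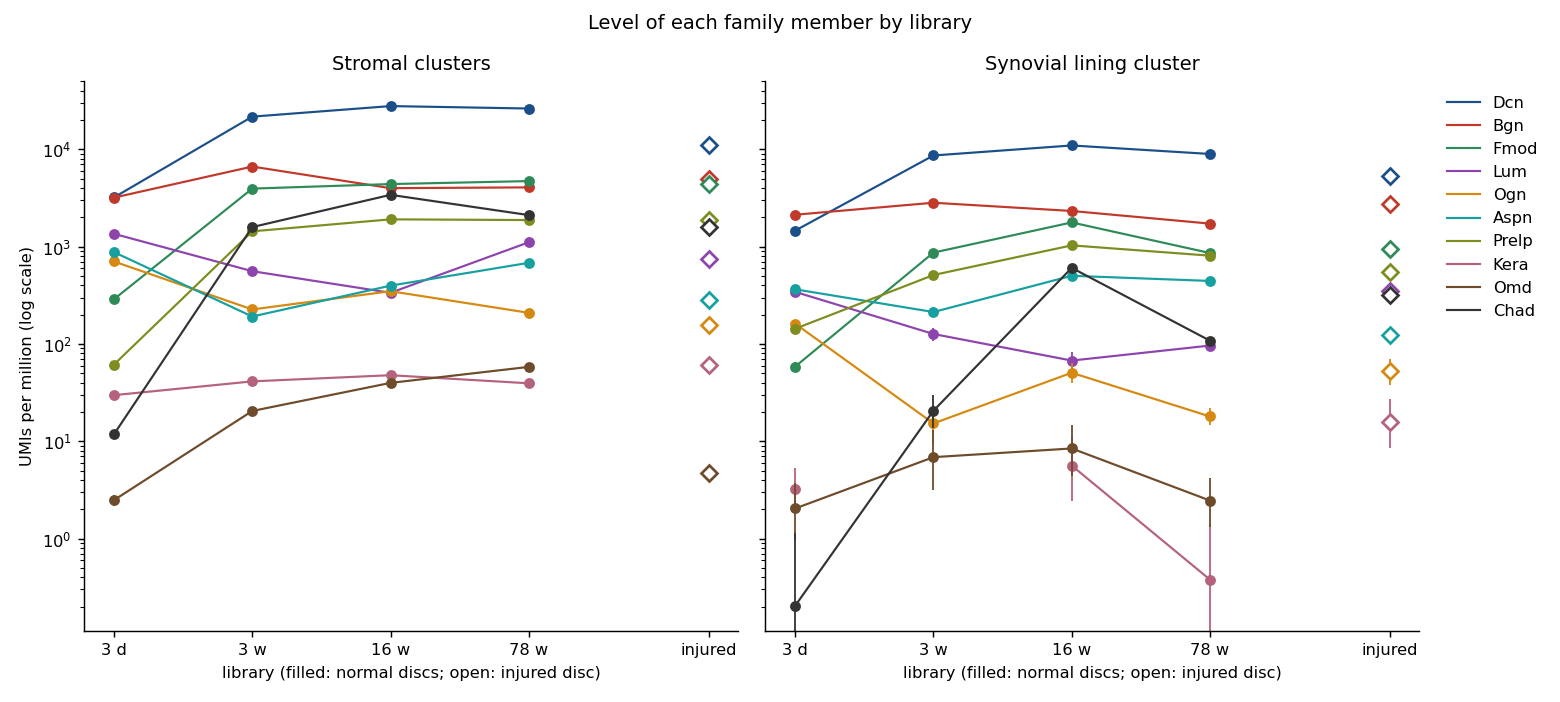
Level of each member in CPM (log axis) by library, in the stromal clusters (left) and the synovial lining cluster (right), with filled points joined by lines for the 4 normal libraries, open diamonds for the injured one and bars for 95% counting intervals; a level of 0 UMIs is not drawn. Dcn lies above every other stromal member from 3 w on, while Lum, Ogn and Aspn are lower at 3 w than at 3 d and Fmod, Prelp and Chad are higher.

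In class I, Dcn, which binds collagen fibrils and TGF-beta, had stromal levels of 3205 CPM at 3 d, 21684 at 3 w, 27841.5 at 16 w, 26276 at 78 w and 11214 in the injured library. It was 6.76-fold (95% interval 6.74 to 6.79) higher at 3 w than at 3 d, and its levels at 3 w, 16 w and 78 w lay within 1.28-fold of the 3 w level. Within clusters the 3 w to 3 d ratio of Dcn was 13.4 in cluster 1, 9.06 in cluster 2 and 5.09 in cluster 3. The 3 clusters thus differed 2.22-fold in Dcn level at 3 d, with cluster 3 highest, and 1.03-fold at 78 w. Bgn, a close relative of Dcn that also takes part in innate immune signalling, was at 3192 CPM at 3 d, 6655 at 3 w, 3991 at 16 w, 4067 at 78 w and 4961 in the injured library. Its peak was at 3 w, 2.09-fold (95% interval 2.08 to 2.09) above 3 d and 1.67-fold (95% interval 1.66 to 1.67) above 16 w. The rise from 3 d was under 2-fold with thinned cells (1.98) and without mitochondrial, hemoglobin and ribosomal protein genes (1.69). Within clusters 1, 2 and 3 the rise from 3 d was 1.98, 1.59 and 1.63-fold, under the 2-fold rule in each.

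Aspn, which has a stretch of aspartate residues and binds TGF-beta and collagen, was at 878 CPM at 3 d, 191 at 3 w, 398 at 16 w, 683 at 78 w and 281 in the injured library. It was 4.59-fold (95% interval 4.52 to 4.66) lower at 3 w than at 3 d and then higher again at each later normal stage, 2.08-fold (95% interval 2.04 to 2.11) from 3 w to 16 w and 1.72-fold (95% interval 1.69 to 1.74) from 16 w to 78 w. Cluster 3 held the highest Aspn level of the 3 large stromal clusters in every library, at 1139 CPM at 3 d, 567 at 3 w, 1018 at 16 w, 1614 at 78 w and 796 in the injured library. In cluster 1 it was 454 CPM at 3 d, 62.5 at 3 w, 215 at 16 w, 366 at 78 w and 79.6 in the injured library. Equal weight for clusters 1, 2 and 3, whose shares differed between libraries, changed the 78 w to 3 d ratio of Aspn from 0.777 to 1.27, which turns its direction, and the 3 w to 3 d ratio from 0.218 to 0.401.

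In class II, Fmod, which acts in collagen cross-linking and fibril assembly, was at 288 CPM at 3 d, 3950.0 at 3 w, 4398 at 16 w, 4719 at 78 w and 4388 in the injured library. It was 13.7-fold (95% interval 13.5 to 13.9) higher at 3 w than at 3 d, and the levels at 3 w, 16 w, 78 w and after injury all lay from 3950.0 to 4719 CPM. Prelp, a heparin-binding protein of basement membranes and cartilage, showed the same shape at a lower level, at 61.5 CPM at 3 d, 1438 at 3 w, 1908 at 16 w, 1877 at 78 w and 1886 in the injured library. Its ratio was 23.4-fold (95% interval 22.8 to 24.0) from 3 d to 3 w. The equal weight of clusters lowered the Fmod ratio of 3 w to 3 d from 13.7 to 7.74, and within clusters it was 7.63, 6.92 and 11.5. For Prelp the values in clusters 1, 2 and 3 were 20.8, 20.5 and 13.9.

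Lum, a regulator of fibril diameter best known from the cornea, had a course of its own, at 1356 CPM at 3 d, 559.7 at 3 w, 336 at 16 w, 1110.3 at 78 w and 739.6 in the injured library. It was 2.42-fold (95% interval 2.40 to 2.45) lower at 3 w than at 3 d, 1.67-fold (95% interval 1.64 to 1.69) lower again at 16 w, and 3.31-fold (95% interval 3.26 to 3.35) higher at 78 w than at 16 w. This last step was seen within each large cluster, at 4.82-fold in cluster 1, 3.49-fold in cluster 2 and 2.11-fold in cluster 3. The level at 78 w was 1.22-fold (95% interval 1.21 to 1.23) below that at 3 d. Lum was lower at 3 w than at 3 d within each of them too, though by less than 2-fold in cluster 3 (ratios 0.381, 0.440 and 0.720).

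Kera and Omd were the members with the lowest levels from 3 w on. Kera, a keratan sulfate proteoglycan of the cornea, was at 29.8 CPM at 3 d, 41.3 at 3 w, 47.8 at 16 w, 39.4 at 78 w and 61.0 in the injured library, and no pair of normal stages differed by 2-fold. Within clusters the differences were larger. In cluster 1 Kera was at 43.6 CPM at 3 d, 26.5 at 3 w, 6.94 at 16 w, 3.08 at 78 w and 16.0 in the injured library, and in cluster 3 at 19.6 CPM at 3 d, 56.7 at 3 w, 106 at 16 w, 105 at 78 w and 111 in the injured library. Levels in cluster 2 were 53.7 to 72.1 CPM throughout. Cluster 1 was thus 14.2-fold lower at 78 w than at 3 d and cluster 3 5.32-fold higher, while the ratio over all stromal cells was 1.32. Endothelial Kera was 19.7% (36 UMIs) of the stromal level at 16 w and 12.6% (20 UMIs) at 78 w, more than cluster 1 reached. The part of background RNA in the cluster 1 levels was not tested. Omd, a keratan sulfate protein of mineralized tissue, was at 2.49 CPM at 3 d, 20.5 at 3 w, 39.8 at 16 w, 58.2 at 78 w and 4.72 in the injured library, with 249 UMIs at 3 d and 132 in the injured library. It was 8.24-fold (95% interval 7.23 to 9.43) higher at 3 w than at 3 d and 23.4-fold (95% interval 20.6 to 26.7) higher at 78 w than at 3 d. Thinning each cell to 1000 UMIs put the latter at 11.7-fold. In cluster 1 Omd was at 1.44 CPM at 3 d and 18.7 at 3 w, with 48.4 at 16 w and 88.0 at 78 w, and in cluster 3 it was at 32.8 CPM at 16 w and 15.6 at 78 w.

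Ogn, the class III member, known from bone and as a regulator of fibril assembly, was at 704 CPM at 3 d, 226 at 3 w, 349 at 16 w, 209 at 78 w and 156 in the injured library. It was 3.11-fold (95% interval 3.07 to 3.16) lower at 3 w than at 3 d and 3.37-fold (95% interval 3.31 to 3.42) lower at 78 w. Cluster 3 had the highest Ogn level of the 3 large clusters in every library, 3.44 to 6.41 times the lowest of them. Within clusters the ratio of 3 w to 3 d was 0.363 in cluster 1, 0.943 in cluster 2 and 0.555 in cluster 3. Ogn passed the 2-fold rule in cluster 1 alone of these, and with equal weight for the clusters its ratio was 0.591 in place of 0.321 at 3 w and 0.512 in place of 0.297 at 78 w.

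Chad, the class IV member, spanned the widest range of the family. Its stromal level was 11.8 CPM at 3 d, 1589 at 3 w, 3409 at 16 w, 2110.0 at 78 w and 1589 in the injured library. The 3 w level was 135-fold (95% interval 127 to 143) that at 3 d, and the 16 w level 2.15-fold (95% interval 2.13 to 2.16) that at 3 w. At 78 w it was 1.62-fold (95% interval 1.61 to 1.63) below 16 w. Cluster 1 was at 19.8 CPM at 3 d, 2152 at 3 w, 4752 at 16 w, 2916 at 78 w and 2417 in the injured library, and cluster 3 at 7.70 CPM at 3 d, 289.6 at 3 w, 576 at 16 w, 252 at 78 w and 247 in the injured library, so that from 3 w on these clusters differed 7.43 to 11.6-fold. Within each of clusters 1, 2 and 3 the 3 w level was above the 3 d level, by 109, 68.6 and 37.6-fold. Endothelial Chad stood at 221 CPM at 3 w, beside 289.6 in cluster 3. At 16 w, 78 w and after injury it was 22.4%, 18.2% and 23.9% of the stromal level, more than cluster 3 reached. The part of background RNA in the cluster 3 levels was not tested. The clusters were built without Chad, but it is among the leading genes of clusters 1 and 2, so its difference between clusters describes them and is no test.

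**Figure D3:**
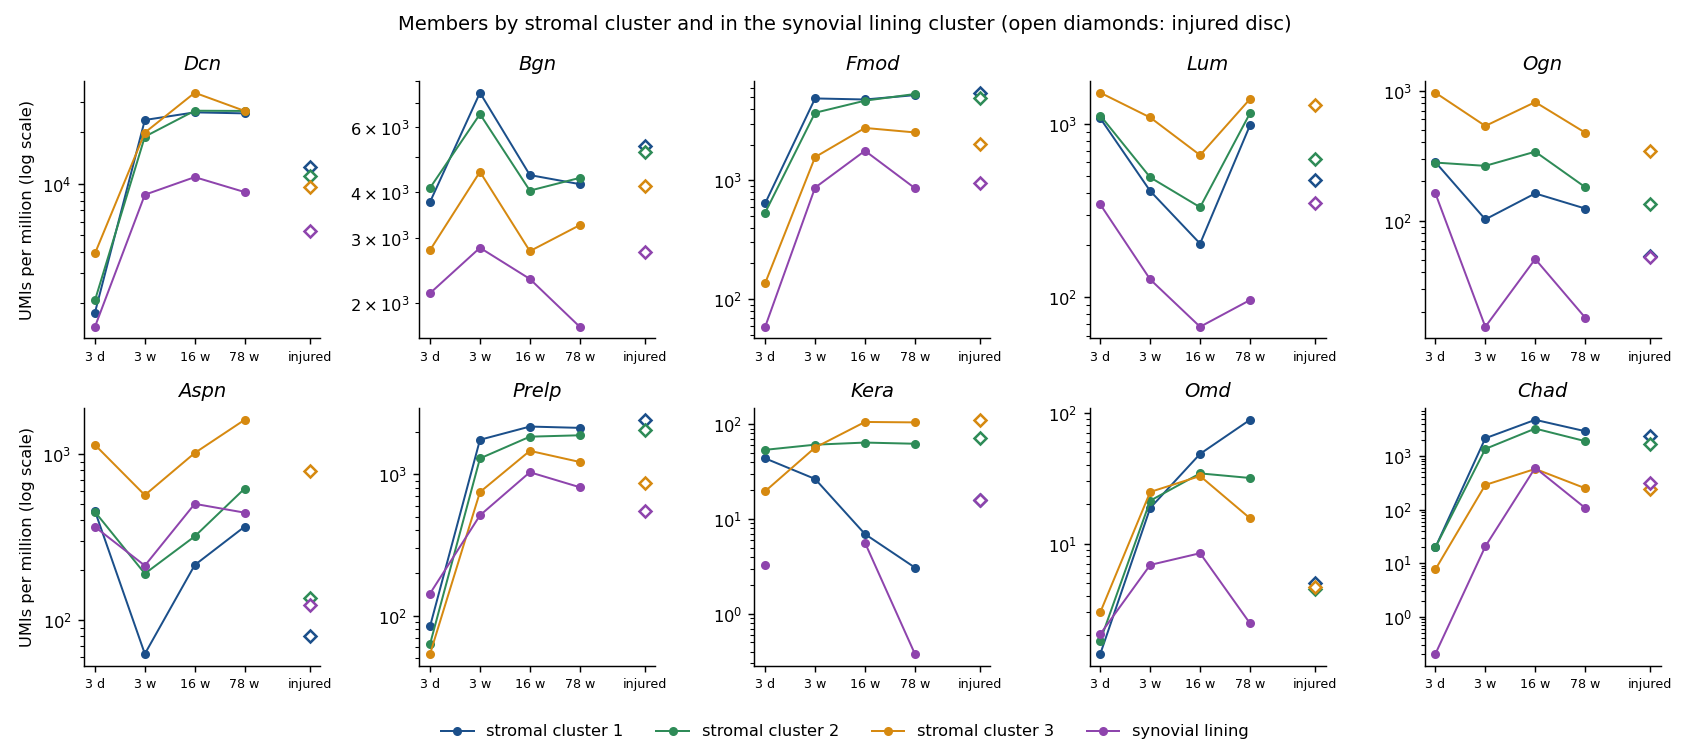
Each panel shows 1 member in CPM (log axis, scaled per panel) by library, for stromal clusters 1, 2 and 3 and the synovial lining cluster; points joined by lines are the 4 normal libraries, open diamonds the injured one, and a level of 0 UMIs is not drawn. Lum, Ogn and Aspn are highest in cluster 3 at every stage, Fmod and Chad are lowest there among the stromal clusters, and Kera separates cluster 1 from cluster 3 from 16 w on.

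The order of the members changed with age. At 3 d it ran Dcn, Bgn, Lum, Aspn, Ogn, Fmod, Prelp, Kera, Chad, Omd, and the intervals of Dcn (3194 to 3216 CPM) and Bgn (3181 to 3203 CPM) overlapped. At 3 w it ran Dcn, Bgn, Fmod, Chad, Prelp, Lum, Ogn, Aspn, Kera, Omd. At 16 w it ran Dcn, Fmod, Bgn, Chad, Prelp, Aspn, Ogn, Lum, Kera, Omd. At 78 w it ran Dcn, Fmod, Bgn, Chad, Prelp, Lum, Aspn, Ogn, Omd, Kera, and in the injured library Dcn, Bgn, Fmod, Prelp, Chad, Lum, Aspn, Ogn, Kera, Omd. Apart from Dcn and Bgn at 3 d, no neighbours in these stromal orders had overlapping counting intervals, which leave out the spread between animals and the choice of weights. With equal weight for the clusters, with the mean of per-cell CPM or with thinned cells, Bgn stood before Dcn at 3 d, and at 78 w Prelp stood before Chad and Kera before Omd. Thinned cells also put Prelp before Chad at 3 w. Over all stromal cells Lum, Aspn and Ogn, which followed Dcn and Bgn at 3 d, stood behind Fmod, Prelp and Chad in every later library. In cluster 3, which held a larger share of stromal cells at 3 d than later, this was not so. There Lum, Aspn and Ogn stood before Chad in all 5 libraries, Lum before Prelp at 3 w, at 78 w and after injury, and Aspn before Prelp at 78 w. At 3 d Bgn, not Dcn, was first in clusters 1 (3767 against 1769 CPM) and 2 (4112 against 2086 CPM).

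Counts per cell showed the same change of leading member. Each stromal cell was thinned to 1000 UMIs, which left out 8 to 333 shallower cells per library. In the thinned cells Dcn had more UMIs than every other member in 29.3% of cells at 3 d, 89.2% at 3 w, 93.6% at 16 w, 92.5% at 78 w and 71.1% in the injured library. Bgn led alone in 41.4% of cells at 3 d, 6.63% at 3 w, 0.952% at 16 w, 1.64% at 78 w and 11.0% after injury. The median cell had 3 members detected at 3 d and 5 in each other library.

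The share of thinned stromal cells with a UMI of Chad was 1.08% at 3 d, 43.7 at 3 w, 54.0 at 16 w, 43.7 at 78 w and 42.8 in the injured library, beside 0.202 to 13.9% of thinned endothelial cells, which serve here as a measure of background. Without thinning the stromal shares were 6.73% at 3 d, 69.0 at 3 w, 79.5 at 16 w, 70.7 at 78 w and 58.2 in the injured library, at median depths of 3569.5 to 13237.5 UMIs in stromal and 1766 to 5744.5 in endothelial cells. For Lum the thinned stromal shares were 61.7% at 3 d, 33.0 at 3 w, 22.2 at 16 w, 51.5 at 78 w and 43.5 in the injured library, beside 3.25 to 21.8% of endothelial cells. Dcn was found in 77.7% of thinned stromal cells at 3 d and 99.1 to 99.9% in the other libraries, beside 25.9 to 46.6% of endothelial cells. Kera (2.69 to 5.23%) and Omd (0.318 to 2.92%) were found in few thinned cells at any stage.

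**Figure D4:**
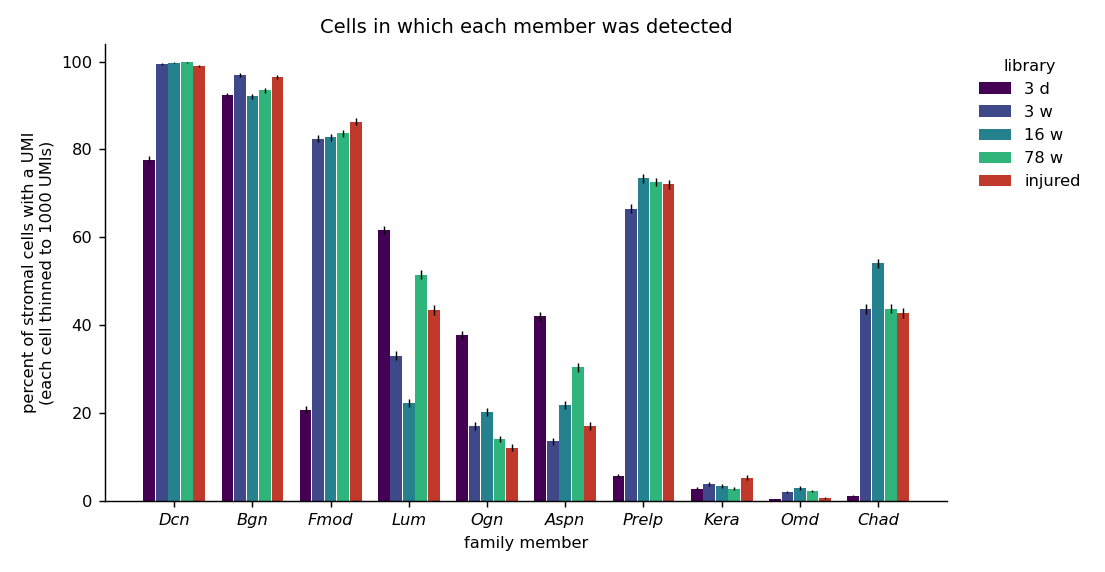
Percent of stromal cells with at least 1 UMI of each member after each cell was thinned to 1000 UMIs (vertical axis), by member (horizontal axis) and library (bar colour), with 95% Clopper-Pearson intervals. Fmod, Prelp and Chad stand at 20.7%, 5.73% and 1.08% at 3 d and at 42.8% or more later, while Lum, Ogn and Aspn have their highest bar at 3 d.

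Some members were found together and others apart. At 16 w, Chad was found in 57.5% of thinned stromal cells with a UMI of Fmod and 37.3% of those without. It was found in 75% of cells with Omd and 53.4% of those without. For Kera and Aspn the sides were turned around. Chad was in 36.4% of cells with Kera against 54.6% without, and in 40.3% of cells with Aspn against 57.8% without. The direction of these 4 pairs was the same at 3 w, at 78 w and in the injured library, while at 3 d Chad was in 1.71% of cells with Kera against 1.07% without; at 78 w the Omd pair stood at 74.6% against 43.0% and the Kera pair at 28.3% against 44.1%. Aspn, on chromosome 13 like Ogn, was more frequent in cells with Ogn than in cells without in all 5 libraries, in 54.1% of cells with Ogn against 34.6% of cells without at 3 d and 33.1% against 14.9% after injury. These shares are descriptions of cells within a library, and cells are not replicates. They pool the stromal clusters, between which Chad differed 7.43 to 11.6-fold from 3 w on, and the part of the clusters was not tested. Some rest on few cells. Omd was in 0.565% of 6545 thinned cells of the injured library, and at 3 d Kera was in 2.73% and Chad in 1.08% of 10696.

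In the synovial lining cluster the family took 0.467% of UMIs at 3 d, 1.32% at 3 w, 1.73% at 16 w, 1.30% at 78 w and 1.04% after injury, less than in the stromal clusters of the same library each time. Dcn was at 1461 CPM at 3 d, 8649.8 at 3 w, 10964 at 16 w, 8965 at 78 w and 5320.2 in the injured library, which is 34.1 to 47.4% of the stromal level. Bgn, at 2129 CPM at 3 d, 2828 at 3 w, 2327 at 16 w, 1725 at 78 w and 2752 in the injured library, was 42.4 to 66.7% of the stromal level and stood above Dcn at 3 d. The same percentages in endothelial cells, a measure of background that may not hold for lining cells or for Bgn, were 17.0 to 27.5% for Dcn and 20.4 to 33.3% for Bgn. Endothelial Bgn stood above Dcn in each normal library, such as 33.3% against 24.3% at 3 d, and its source was not tested.

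Which of lining and stromal cells had more Prelp and Aspn differed between libraries. At 3 d, where the lining cluster rests on integration, Prelp was at 143 CPM there and 61.5 CPM in stromal cells. Prelp was thus 2.33-fold higher in the lining cluster (95% interval 2.15 to 2.52). In the later libraries it was lower in the lining cluster, at 511 CPM at 3 w, 1031 at 16 w, 808 at 78 w and 553 in the injured library, or 29.3 to 54.0% of the stromal level. Aspn in the lining cluster was at 365 CPM at 3 d, 213 at 3 w, 502 at 16 w, 444 at 78 w and 122 in the injured library. It was 111% of the stromal level at 3 w, with an interval that holds equal levels (95% interval 98.5 to 125), and 126% (117 to 136) at 16 w. At 3 d, at 78 w and after injury it was 41.5%, 65.1% and 43.5%. Stromal cluster 3 alone was above the lining level in each library, at 567 against 213 CPM at 3 w and 1018 against 502 at 16 w.

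Fmod in the lining cluster was at 58.5 CPM at 3 d, 868 at 3 w, 1775 at 16 w, 860.0 at 78 w and 947 in the injured library, and relative to stromal cells it exceeded the endothelial percentage at 3 w (22.0% against 19.5%) and at 16 w (40.4% against 26.6%). Chad was at 0.204 CPM at 3 d, 20.6 at 3 w, 606 at 16 w, 108 at 78 w and 319 in the injured library there, with 1 UMI at 3 d. Relative to stromal cells this was 1.30 to 20.1%, under the 13.9 to 26.1% of endothelial cells within each library. At 3 w the lining percentage was 1.30% against 13.9% in endothelial cells, so the endothelial value is no measure of lining background for Chad. The source of the lining Chad UMIs was not tested. Lum was at 343 CPM at 3 d, 127 at 3 w, 67.5 at 16 w, 96.3 at 78 w and 347.5 in the injured library. It was above the endothelial percentage at 3 w, at 22.6% against 20.2% with overlapping counting intervals, where macrophages stood at 37.4%. After injury it was above it too, at 47.0% against 29.4%, where mural cells stood at 46.2%. Ogn was at 162 CPM at 3 d, 15.3 at 3 w, 50.6 at 16 w, 18.0 at 78 w and 52.6 in the injured library, at about or under the endothelial percentage in all 5 libraries. Kera had 0 UMIs at 3 w in the lining cluster, which allows a level of up to 2.29 CPM (3 counts), and Omd had 0 in the injured library, which allows up to 3.67 CPM. Neither passed 16 UMIs in the other libraries.

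In endothelial cells and macrophages, most members stood at a similar percentage of the stromal level within a library. Whether this is background RNA was not tested. In endothelial cells the levels of Dcn, Bgn, Fmod, Lum, Ogn, Aspn, Prelp and Chad were 13.9 to 42.4% of the stromal levels in the same library. In erythroid cells at 3 d (339 cells), the stromal percentage was 2.88 to 6.26% for the same members. The other libraries had few erythroid cells. Dcn there stood at 24.2% at 3 w (27 cells), 1.12% at 16 w (2 cells, 1 UMI), 10.3% at 78 w (32 cells) and 27.7% after injury (53 cells). In macrophages the median member stood at 11.7 to 23.8% by library. Some members lay apart there, Aspn at 69.0% and Lum at 37.4% at 3 w, and Omd at 90.0% (45 UMIs) at 16 w. Aspn in mural cells, the Acta2- and Rgs5-positive cells of vessel walls, stood apart from this. It was at 992 CPM at 3 d, 528 at 3 w, 727 at 16 w, 725 at 78 w and 395 in the injured library there, over 117 to 353 cells per library, or 113%, 276%, 183%, 106% and 140.3% of the stromal level, and above the stromal level in all 5 libraries. Stromal cluster 3 alone was above the mural level in each of them. It was found in 23.1 to 60% of thinned mural cells and 1.22 to 10.2% of thinned endothelial cells. Dcn in mural cells was 17.0 to 23.0% of the stromal level, close to its endothelial range. Bgn in mural cells was 26.4 to 48.7% and Ogn 71.2% at 78 w against 16.4 to 25.9% in the other libraries.

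**Figure D5:**
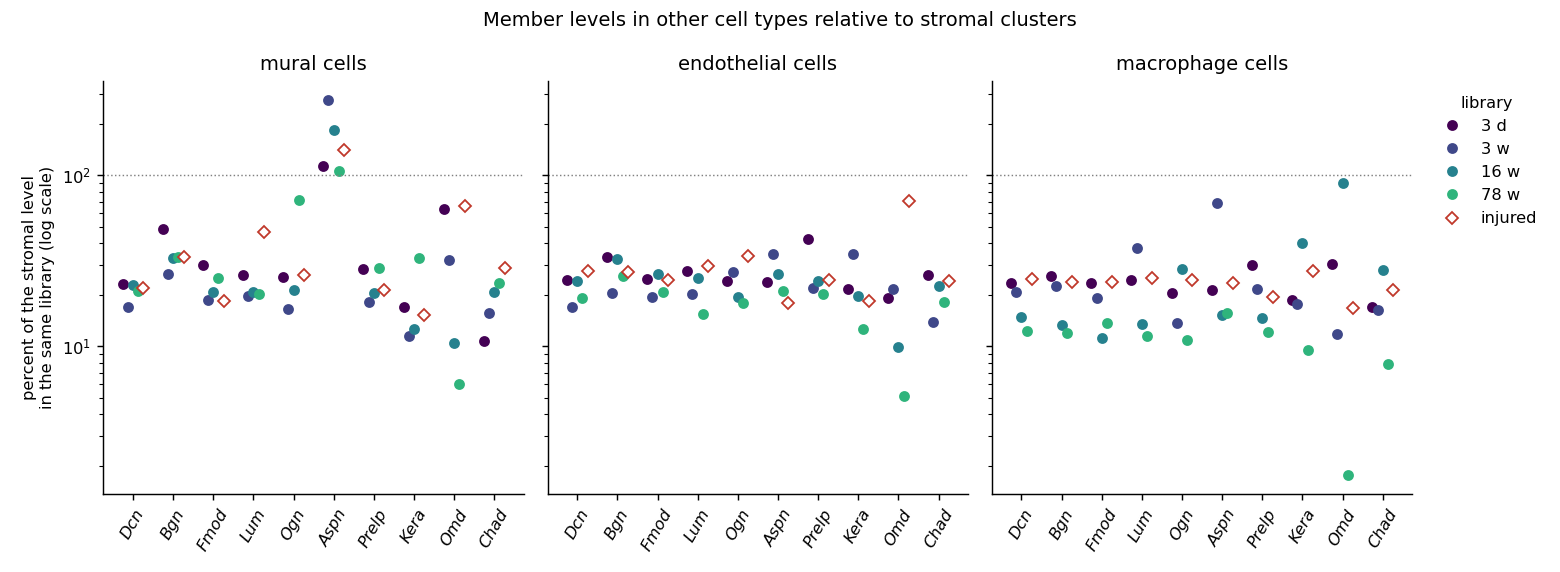
Level of each member in mural, endothelial and macrophage cells as a percent of the stromal level in the same library (log axis, dotted line at 100), with 1 point per library and members with fewer than 100 stromal UMIs left out. Aspn in mural cells lies from 106 to 276% in the 5 libraries, while Dcn, Fmod and Prelp lie at or under 29.8% there.

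The injured library has no uninjured partner of its age and was set against 3 w and 16 w, the libraries on either side of it in age. Against 3 w, no member was higher 2-fold or more (background 5.02% of genes compared) and 1, Omd, was lower (17.5%). Against 16 w, 1 member, Lum, was higher (5.83%) and 4 were lower, Dcn, Ogn, Omd and Chad (14.2%). The median log2 ratio of all genes compared was itself -0.37 against 3 w and -0.31 against 16 w in this shallow library. With libraries scaled by the median ratio over genes instead of the UMI total, the count lower than at 16 w was 2, Dcn (ratio 0.464) and Omd (0.136), with Ogn at 0.514 and Chad at 0.536. With equal weight for the clusters it was 3, without Chad (0.506).

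Dcn, Ogn and Omd lay below both age neighbours in the injured library. In its stromal cells the 8 macrophage markers summed to 125.9 CPM, against 14.4 at 3 w and 16.6 at 16 w, and the 6 erythroid markers to 271 CPM against 3.96 and 33.0, and their part in these differences was not tested. Dcn was 1.93-fold (95% interval 1.93 to 1.94) lower than at 3 w and 2.48-fold (95% interval 2.47 to 2.49) lower than at 16 w, and it was below both in clusters 1, 2 and 3 and in the lining cluster. In cluster 3 Dcn was at 9556 CPM after injury against 19959 at 3 w and 34154 at 16 w. Omd was 4.34-fold (95% interval 3.64 to 5.21) lower than at 3 w and 8.43-fold (95% interval 7.09 to 10.1) lower than at 16 w, again in each of the 3 clusters, where it was at 5.01, 4.53 and 4.69 CPM. Ogn was 2.24-fold (95% interval 2.17 to 2.31) lower than at 16 w and 1.45-fold lower than at 3 w. Lum and Kera lay above both neighbours over all stromal cells (Kera in cluster 1 lay between them), Lum at 1.32 times the 3 w level and 2.20-fold (95% interval 2.16 to 2.24) the 16 w level, and Kera at 1.48 and 1.28 times. Over all stromal cells Bgn, Fmod, Aspn and Prelp lay between the 3 w and 16 w levels, with Fmod not to be told from 16 w (0.998 times). Of these, Bgn alone lay between them in each of clusters 1, 2 and 3. Fmod and Prelp were above both levels in clusters 1 and 2, and Aspn was below both in cluster 2 and in the lining cluster. With thinned cells Fmod (1.05 times) and Prelp (1.04 times) were above 16 w. Median-ratio scaling also put Fmod and Prelp above 16 w. Over all stromal cells Chad (1589 CPM, ratio 1.00 to 3 w with an interval that holds equal levels) could not be told from its 3 w level by CPM. With median-ratio scaling it was above that level. Within clusters Chad did differ from 3 w. It was at 2417 CPM against 2152 in cluster 1, 1680 against 1361 in cluster 2 and 247 against 290 in cluster 3. In the lining cluster it was at 319 CPM against 20.6 at 3 w (27 UMIs). Endothelial Chad was 23.9% of the stromal level after injury, above cluster 3, and the source of the cluster 3 UMIs was not tested.

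The partners of the family were followed by 6 fixed lists, described by counts of genes past the same 2-fold rule. Among 12 collagens that the members bind, 10 were lower at 78 w than at 3 d (21.0% of genes compared) and 1, Col2a1, was higher (14.3%), with a median log2 ratio of -1.58 beside -0.17 over all genes compared. Col1a1, the main fibril collagen chain, was at 9755 CPM at 3 d, 12972 at 3 w, 936 at 16 w, 907 at 78 w and 24436 in the injured library. Col3a1 was at 8292 CPM at 3 d, 5153 at 3 w, 613 at 16 w, 998 at 78 w and 4505 in the injured library. Both were thus lower at 16 w and 78 w, where Dcn was highest, and at 3 w the levels of Dcn and Col1a1 were both high. Col2a1, the cartilage collagen, was at 9.69 CPM at 3 d, 24.6 at 3 w, 57.3 at 16 w, 161 at 78 w and 181 in the injured library. In the injured library 10 of the 12 were higher than at 16 w (5.83% of genes compared) and none was lower (14.2%), and 1, Col2a1, was higher than at 3 w (5.02%).

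Among 20 enzymes that build chondroitin and dermatan sulfate chains, 9 were higher and 4 lower at 78 w than at 3 d, where 14.3% and 21.0% of genes compared were, so that the count lower is at the background. Chst3, a chondroitin 6-O-sulfotransferase, was at 3.16 CPM at 3 d, 8.78 at 3 w, 10.5 at 16 w, 18.4 at 78 w and 11.4 in the injured library. Chst15, which adds a further sulfate to chondroitin sulfate, was at 6.28 CPM at 3 d, 11.3 at 3 w, 29.6 at 16 w, 33.8 at 78 w and 9.98 in the injured library. Chst11, a chondroitin 4-O-sulfotransferase, was at 10.0 CPM at 3 d, 20.3 at 3 w, 43.2 at 16 w, 44.5 at 78 w and 17.8 in the injured library. All 3 were higher at each later normal stage than at 3 d. Of 8 keratan sulfate enzymes, 6 had enough UMIs, of which 2 were higher and 2 lower, against the same background. Chst1, a keratan sulfate sulfotransferase, was at 1.36 CPM at 3 d, 0.497 at 3 w, 1.70 at 16 w, 9.47 at 78 w and 2.25 in the injured library. Chst2 was at 27.4 CPM at 3 d, 8.54 at 3 w, 6.10 at 16 w, 4.45 at 78 w and 11.5 in the injured library. Chst1 was thus highest at 78 w and Chst2 at 3 d. B3gnt2, which extends keratan sulfate and related chains, was at 1.46 CPM at 3 d, 2.67 at 3 w, 3.62 at 16 w, 3.28 at 78 w and 3.29 in the injured library.

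Of 9 proteases that can cut members, 8 had enough UMIs at 78 w against 3 d, with 4 higher and 3 lower, where 14.3% and 21.0% of genes compared were. The 3 lower were Bmp1 (54.9 CPM at 3 d and 23.6 at 78 w), Mmp2 (408 and 173) and Mmp14 (459 and 53.8). The 4 higher were Htra1 (611 and 2096), Mmp3, Adamts5 and Mmp13. Mmp3, stromelysin 1, was at 2.63 CPM at 3 d, 19.5 at 3 w, 40.2 at 16 w, 49.9 at 78 w and 32.3 in the injured library. Adamts5, an aggrecanase, was at 12.4 CPM at 3 d, 189 at 3 w, 214 at 16 w, 141 at 78 w and 63.5 in the injured library. Mmp13, a collagenase, had 1 UMI at 3 d, 33 at 3 w, 2 at 16 w, 226 at 78 w and 27 in the injured library, a 78 w to 3 d ratio of 249.9 with a counting interval of 44.4 to 9912. Of 14 growth factors and receptors that members bind, 6 were higher and 1, Wisp1, was lower, against the same shares. Bmp2, a bone morphogenetic protein, was at 21.8 CPM at 3 d, 69.8 at 3 w, 212 at 16 w, 259 at 78 w and 111 in the injured library. Tlr2, an innate immune receptor that binds Bgn, was at 17.7 CPM at 3 d, 282 at 3 w, 169 at 16 w, 111 at 78 w and 62.0 in the injured library. Met, the HGF receptor bound by Dcn, was at 3.02 CPM at 3 d, 20.4 at 3 w, 24.8 at 16 w, 14.5 at 78 w and 14.5 in the injured library.

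Of 7 other leucine-rich proteoglycans, 5 had enough UMIs at 78 w against 3 d, and 2 were higher, Optc and Ecm2, where 14.3% of genes compared were. Ecm2, which lies next to Aspn, was at 67.6 CPM at 3 d, 216 at 3 w, 422 at 16 w, 301 at 78 w and 124 in the injured library. Optc, next to Prelp, was at 0.329 CPM at 3 d, 2.48 at 3 w, 3.19 at 16 w, 2.30 at 78 w and 0.501 in the injured library. Epyc, next to Kera, was at 2.97 CPM at 3 d, 3.17 at 3 w, 4.75 at 16 w, 3.80 at 78 w and 3.65 in the injured library. In this row on chromosome 13, Ecm2 and Omd were higher at 3 w than at 3 d, and Aspn and Ogn were lower.

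The likeness of members was described by Pearson's r of log2(CPM + 5) over 21 profiles, each a stromal or lining cluster in 1 library with at least 50 cells. The profiles share libraries, depth and some background RNA, so no p is given. Fmod and Chad (r = 0.946), Prelp and Chad (0.915), Fmod and Prelp (0.896) and Dcn and Prelp (0.891) were the closest pairs of members. Aspn ran against Bgn (-0.475), Chad (-0.380) and Prelp (-0.326). Neighbours in the genome were not always alike. Lum and Kera stood at 0.669 and Ogn and Aspn at 0.582, but Dcn and Lum at -0.0903 and Aspn and Omd at 0.0625.

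Among genes outside the family, the 2 most like each member over the same profiles were Ppl (0.978) and Galnt15 (0.973) for Dcn, Sgca (0.909) and Atp8a2 (0.897) for Bgn, and Cxcl12 (0.866) and Tubb2b (0.844) for Aspn. For Fmod they were Comp (0.955), a cartilage and tendon matrix protein, and Ank (0.952), and for Prelp Clu (0.978) and Cilp (0.963), a cartilage intermediate layer protein. Chad was most like Prrt1 (0.966) and Clu (0.949). Lum was most like Gdf10 (0.917) and Tnn (0.865), Kera like Gpm6b (0.934) and Maf (0.902), Omd like Itpkb (0.932) and Cdo1 (0.929), and Ogn like Rab30 (0.939) and Nexn (0.931).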

How the data were processed

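Single-cell suspensions of TMJ discs were digested with Pronase and Collagenase P and captured with 10x Genomics 3′ chemistry. The authors deposited raw UMI counts per gene and barcode for each library, without normalization; the submitters' processing notes name Cell Ranger 3.1 and build mm10, and the file headers name Cell Ranger 4.0.0. Libraries held 8467 to 15169 barcodes and 31585993 to 125427849 UMIs, with at least 500 UMIs per barcode.

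Kept were barcodes above 200 UMIs whose mitochondrial share was 30% or less (51688 cells). Cells were clustered in Seurat 5.3.0 (R 4.3.3) with 2000 variable features, anchor integration over 30 dimensions and a resolution of 0.2; members and list genes were left out, so that 1962 features were used. The result was 12 clusters. A cluster took a cell type's name from at least 3 marker genes at 2-fold or more over the 25th percentile of other clusters, and lining needed 3 markers among its 10 leading genes. Clusters 5, 11 and 12 were not used. Cluster 5 (1733 cells, 1303 of them from 3 d) was led by muscle genes, with Pi16, Ibsp and C3 also among its leading genes. It had 14 stromal markers raised, but its median depth was 0.0986 times the library median, too shallow for a stromal name. Cluster 11 mixed Schwann and muscle genes. Cluster 12 (188 cells, 162 of them from the injured library) was led by Gm26870, Gm10800 and other genes with Gm symbols. Gm10800 and Gm26870 also led a stromal cluster of 7208 cells built without integration, of which 6807 were from the injured library. Scrublet's automatic threshold marked 0 to 2 cells per library, so doublets were kept, and their removal at the expected rate was an alternative.

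UMIs were summed per library and cluster and given as CPM. Intervals are 95% exact Poisson (levels), Clopper-Pearson (shares) and exact conditional (ratios), computed with scipy 1.17.1 and checked on simulated counts. The named genes were all members, up to 3 genes per list, and the 2 genes most like each member. The list genes were those with the largest difference between 78 w and 3 d, in either direction, and at least 100 UMIs. The other proteases past the 2-fold rule are named too. Members and lists were chosen with earlier results of these data known. Alternatives changed the UMI and mitochondrial limits, doublets, scaling, weighting of cells and clusters, depth, clustering and the fold.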

Additional observations from a re-analysis of the deposited data

Results flagged for a closer look

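Kera moved in opposite directions in 2 stromal clusters. At 78 w against 3 d its level was 5.32 times as high in cluster 3 (95% counting interval 4.95 to 5.72) and 0.0706 times in cluster 1 (0.0584 to 0.0848). The difference between the clusters was not tested, since each age is 1 library. The match of each cluster between ages rests on integration. Kera rested on 147 UMIs in cluster 1 and 1871 in cluster 3 at 78 w. Endothelial Kera at 78 w was 12.6% (20 UMIs) of the stromal level, more than cluster 1 reached, and the part of background RNA was not tested.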

How the results depend on the processing

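Each of the 60 ratios (10 members, 6 comparisons) was recomputed under 10 alternatives, and 577 of the 600 values kept their direction; 9 moved by more than 1.5 times, 8 of them with equal weight for clusters 1, 2 and 3 and 1, the 78 w to 3 d ratio of Omd, when cells were thinned to 1000 UMIs. Counts of members past the rule that moved by more than 1.5 times were these, and the cause was not tested beyond what each alternative changes. At a threshold of 1.5-fold, 4 members were higher and 2 lower at 16 w than at 3 w, 2 higher and 2 lower at 78 w than at 16 w, and 2 lower after injury than at 3 w. At 3-fold, 0 were higher at 16 w than at 3 w, and 0 were higher and 1 lower after injury than at 16 w. With equal weight, 1 was lower at 3 w than at 3 d, 1 higher at 16 w than at 3 w and 0 lower at 78 w than at 3 d. With the mean of per-cell CPM, 1 was higher at 16 w than at 3 w (Aspn, with Chad at 1.97), and 0 with thinned cells. Median-ratio scaling gave 2 lower after injury than at 16 w. Smaller moves were from 6 to 5 higher at 3 w than at 3 d, where Bgn (2.09) fell under 2-fold with equal weight (1.74), with the mean of per-cell CPM (1.98), with thinned cells (1.98) and without mitochondrial, hemoglobin and ribosomal protein genes (1.69); from 4 to 3 lower after injury than at 16 w, where Chad was lost with equal weight, mean per-cell CPM and thinned cells (0.506 to 0.543); and from 2 to 3 higher at 16 w than at 3 w, where Omd (1.94) passed with median-ratio scaling, without those genes and without doublets (2.01 to 2.06). At 3-fold, Bgn and Lum also left the counts at 3 w against 3 d (5 higher, 2 lower). Of the 50 positions in the orders, 8 moved with thinned cells, 6 with equal weight, 6 with the mean of per-cell CPM and 2 each without integration, without doublets and with the lining added. The planned removal of doublets was not run, since the automatic threshold marked 0 to 2 cells per library; removal at the expected rate was chosen after seeing the data. No paired analysis was possible because each condition is 1 library and the labels give no replicate numbers. The depth of the injured library and the few cells of the lining cluster (84 at 3 w) limit Kera and Omd most.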
